A study of Mus musculus with 30 samples.

Results

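Sterol and fatty acid synthesis was described here through 8 mouse genes: the regulators Srebf1, Srebf2 and Insig1, the sterol enzymes Hmgcs1 and Sqle, and the fatty acid enzymes Acly, Fasn and Scd1. Every probe set of the 3 array types whose annotation names exactly 1 of these genes was taken, which gave 14 probe sets, 9 on the A array, 4 on B and 1 on C. The 8 genes were among 15965 genes that the annotation names alone on a probe set. Of the 14 probe sets, 11 passed the filter on dim signals and were tested, covering 7 genes, and Srebf2 was the gene without a tested probe set. Whole murine lung was measured on Affymetrix MG-U74 version 2 arrays, which carry short oligonucleotide probes, after 10 h, 2 d, 4 d or 6 d in a chamber at 10% oxygen, a model of pulmonary hypertension, and in a group titled Norm. The strain, sex and age were not given in the sources used here, nor was what Norm stands for, and the description attached to Norm speaks of a rejection rather than of an oxygen level, so the titles were followed. Each group had 2 samples, 1a and 1b, each run on the 3 array types. Nothing in the labels says whether 1a and 1b were different animals, and p-values reflect the variation between the samples at hand, possibly only technical. An array titled Norm 1a of type A has its values in the B table and was not used, so Norm has 1 A array (1b) and every A comparison with Norm assumes that it varied as the other groups did.

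Cholesterol and fatty acids are both built from cytosolic acetyl-CoA. The SREBP transcription factors, made from Srebf1 and Srebf2, are held in the endoplasmic reticulum with SCAP by INSIG proteins when sterols are plentiful, and are cut and released to the nucleus when sterols fall. They then bind sterol regulatory elements, often with NF-Y at a nearby CCAAT box, at genes of sterol synthesis, fatty acid synthesis and lipoprotein uptake. In the lung, alveolar type 2 cells make surfactant lipids, rich in saturated phosphatidylcholine, and fatty acid synthesis supplies part of that lipid. Oxygen is itself a substrate of squalene epoxidase, of sterol demethylation and of stearoyl-CoA desaturase.

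The promoters of 3 of these genes are shown because they differ in the motifs that such factors bind. RefSeq windows of 300 bases (250 before to 50 after the annotated start, build GRCm38.p6) were matched by symbol for 6 of the 8 genes, 8 windows in all, with 3 for Srebf1. Scd1 and Sqle were not matched. The 250 bases before the start are printed 5′ to 3′ on the strand of the gene, for Hmgcs1 at chr13:119690101-119690350 (plus strand), Insig1 at chr5:28071162-28071411 (plus strand) and Fasn at chr11:120824548-120824797 (minus strand). Capitals mark matches to a sterol element (TCACNCCAC), an E-box (CACGTG) and the NF-Y box (CCAAT, which reads ATTGG on the other strand), searched on both strands.
Hmgcs1: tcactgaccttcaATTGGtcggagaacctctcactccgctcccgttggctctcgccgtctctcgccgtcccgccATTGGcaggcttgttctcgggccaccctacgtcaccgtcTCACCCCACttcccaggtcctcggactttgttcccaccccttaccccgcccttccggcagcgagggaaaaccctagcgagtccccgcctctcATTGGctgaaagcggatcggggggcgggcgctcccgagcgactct
Insig1: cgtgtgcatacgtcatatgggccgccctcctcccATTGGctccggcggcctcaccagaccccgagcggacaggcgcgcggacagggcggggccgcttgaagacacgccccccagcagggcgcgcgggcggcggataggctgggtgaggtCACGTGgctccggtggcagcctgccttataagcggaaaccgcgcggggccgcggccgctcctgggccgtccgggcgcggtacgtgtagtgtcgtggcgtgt
Fasn: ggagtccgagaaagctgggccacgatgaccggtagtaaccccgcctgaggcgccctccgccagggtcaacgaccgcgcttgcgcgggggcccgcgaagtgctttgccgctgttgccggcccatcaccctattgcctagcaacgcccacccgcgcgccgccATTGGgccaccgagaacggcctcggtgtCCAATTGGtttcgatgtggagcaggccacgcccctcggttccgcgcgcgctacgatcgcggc
The sterol element was matched in 1 of the 8 windows, that of Hmgcs1, at 137 bases before the start, against 1.24% of the 32851 windows in the table. The E-box was matched in 1 of 8, that of Insig1, at 101 bases before the start, against 7.15% of all windows. CCAAT was matched in 7 of the 8 windows, in all 6 genes, against 37.4% of all windows. Hmgcs1 held 4 CCAAT matches, 1 of them after the start, and Fasn held 3, of which 2 share bases with each other. Among the further genes of sterol synthesis listed below, 14 of 15 with a window held CCAAT and 0 held the sterol element, and among those of fatty acid synthesis the counts were 11 and 1 of 16. These matches are letters in a window, and no binding was measured in this series. Only the exact words were searched, so a count of 0 does not show that sterol elements of other spelling are absent.

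**Figure D1:**
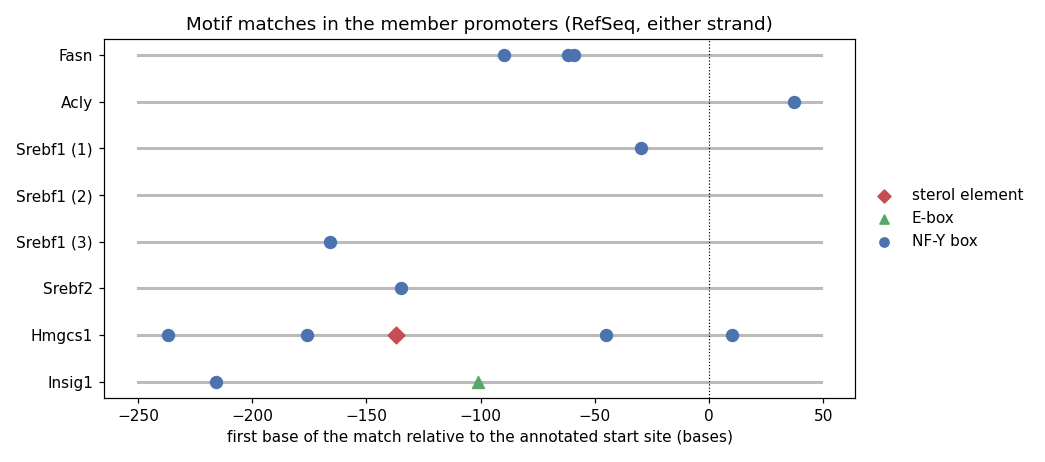
Motif matches in the 8 member promoter windows, by distance in bases of the first base of the match from the annotated start (dotted line), with circles for CCAAT, a diamond for the sterol element and a triangle for the E-box. The sterol element stands 137 bases before the start of Hmgcs1 and the E-box 101 bases before that of Insig1.

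The RNA of the 2 d samples differed from the rest in the control probes for Gapdh, whose 3'/5' signal ratio is a guide to RNA integrity. That ratio was 3.64 to 4.60 for 2 d, 1.40 to 1.68 for 6 d and 0.786 to 1.51 for Norm, 10 h and 4 d. Beta-actin gave 3.64 to 4.98, 0.474 to 1.66 and 0.0272 to 0.926 in the same order. The part of these differences in any value at 2 d or 6 d was not tested. By order of deposit, 2 d and 6 d stand in a run apart from Norm, 10 h and 4 d, and what these runs stand for is not stated, so run and time cannot be told apart when 2 d or 6 d is set against Norm. Within a group, the 2 arrays of a type correlated at Spearman 0.867 to 0.966 over all probe sets. Markers of lung epithelium were bright on the A arrays, with Sftpb, a surfactant protein of type 2 cells, at 9349 to 17146 and Scgb1a1, the club cell secretory protein, at 4110 to 45063.

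Over these 8 genes, the lung transcripts of sterol and fatty acid synthesis showed no difference between any time in low oxygen and Norm that passed the test across all probe sets. The values farthest from Norm were those of Hmgcs1 and 1 of the Scd1 probe sets at 2 d, both higher, of the other Scd1 probe set at 10 h, lower, and of Insig1 at 10 h, higher. Srebf1, Sqle, Acly and the bright probe set of Fasn stayed nearer to it, with log2 differences from Norm between -0.34 and 0.31. Intensities are the deposited linear values. For testing, a floor was set for each array type at its 40th percentile (A 236.05, B 297.36, C 200.93), lower values were raised to it, and log2 was taken. In whole lung, fewer cells of a type and less RNA per cell cannot be told apart.

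The test was limma's moderated test with Benjamini-Hochberg adjustment over the 25801 probe sets of the 3 types, called at an adjusted p under 0.05. At 10 h, 0 of the 11 member probe sets passed, against 0% of all probe sets, and 1 had an unadjusted p under 0.05, against 6.11%. At 2 d, 0 of 11 passed, against 1.86%, and 1 had an unadjusted p under 0.05, against 18.9%. At 4 d, 0 of 11 passed, against 0.00775%, and 0 had an unadjusted p under 0.05, against 6.13%. Counts of 0 or 1 in 11 are too few to be set apart from these background shares. At 6 d, 0 of 11 passed, against 0%, and 1 had an unadjusted p under 0.05, against 9.17%. For the mean of the 4 low oxygen times minus Norm, 0 of 11 passed, against 0%, and 0 had an unadjusted p under 0.05, against 7.79%. All 5 of these comparisons share the same Norm arrays.

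Comparisons within low oxygen gave the same count of calls. For 4 d minus 10 h, 0 of 11 passed, against 0.0233%, and 0 had an unadjusted p under 0.05, against 8.08%. For 6 d minus 2 d, 0 of 11 passed, against 0.0620%, and 4 had an unadjusted p under 0.05, against 13.0%. Of these 4, probe sets of Fasn and Scd1 were higher at 6 d, and Hmgcs1 and Sqle were lower. For 4 d and 6 d minus 10 h and 2 d, 0 of 11 passed, against 0.0155%, and 2 had an unadjusted p under 0.05, against 11.0%. In the F test for any difference among the 5 groups, 0 of 11 passed, against 1.24%, and 2 had an unadjusted p under 0.05, against 19.6%. The smallest adjusted p of any member was 0.0776, from the F test of the Scd1 probe set 94057_g_at by limma with Benjamini-Hochberg adjustment. With 1 probe set per gene, 5 of the 7 tested genes were higher at 2 d than in Norm and 2 lower, with a median log2 difference of 0.22 beside 0.0038 over all 13039 genes tested. At 6 d minus 2 d, 3 were higher and 4 lower, with a median of -0.28 beside 0 over all genes. Scd1 entered these counts through 94056_at, and with 94057_g_at in its place 4 were higher and 3 lower in both comparisons, with medians of 0.17 and 0.10, so the direction at 6 d minus 2 d turns on that choice of probe set.

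**Figure D2:**
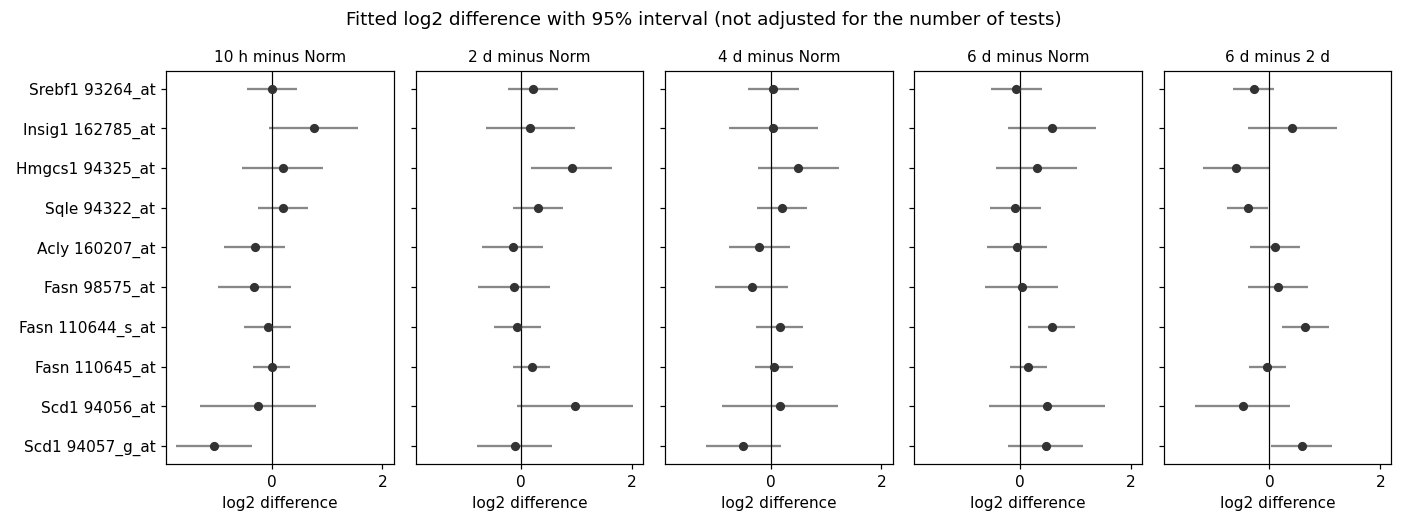
Fitted log2 difference (points) with its 95% interval, not adjusted for the number of tests, of 10 member probe sets in 5 comparisons. Most intervals include 0, and against Norm those of Hmgcs1 at 2 d, Scd1 94057_g_at at 10 h and Fasn 110644_s_at at 6 d do not, although none passed after adjustment; the Acly probe set on C, near or under the floor on every array, is left out.

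Srebf1, which encodes the SREBP-1 factors that act mainly on fatty acid genes, was measured by probe set 93264_at on A. Its intensity was 3297 in Norm, 3492 and 3143 at 10 h, 4318 and 3399 at 2 d, 3675 and 3174 at 4 d, and 3040 and 3261 at 6 d, with samples 1a and 1b in that order. The highest array was 1.42 times the lowest, and the single value that stands out is that of 2 d sample 1a. In order of group means 6 d was lowest, then Norm, 10 h, 4 d and 2 d, and the arrays of neighbouring groups overlapped except for 6 d and Norm, which lay side by side. The log2 difference was 0.22 ± 0.20 SE at 2 d, with a 95% interval of -0.24 to 0.67, and -0.07 at 6 d, with an interval of -0.52 to 0.39. The interval at 2 d runs from 0.846 to 1.60 as a ratio to Norm, and differences inside it could not be told from none.

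Srebf2, which encodes SREBP-2, the factor that acts mainly on sterol genes, had 1 probe set, 112335_at on B. Its intensity lay between 3 and 112 on the 10 arrays, under the floor on all of them, so its level has only an upper bound here and no change was tested.

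Insig1, the endoplasmic reticulum protein that retains the SREBP and SCAP complex and is itself an SREBP target, was read by 162785_at on B. Its intensity was 688 and 692 in Norm, 1108 and 1228 at 10 h, 662 and 906 at 2 d, 1085 and 471 at 4 d, and 1077 and 989 at 6 d. Both arrays at 10 h and both at 6 d lay above both Norm arrays, whereas the 2 d and 4 d pairs spanned the Norm values. The 4 d pair was the most unlike of any tested member, with an SD of 0.85 on the log2 scale. At 10 h the log2 difference from Norm was 0.76 ± 0.35 SE, 1.69-fold, with a 95% interval of -0.04 to 1.56 and a limma adjusted p of 0.843. At 6 d it was 0.58 ± 0.35 SE, with an interval of -0.22 to 1.38. In order of means Norm was lowest, then 4 d, 2 d, 6 d and 10 h, and the arrays of 4 d overlapped those of Norm and 2 d, whereas those of 6 d and 10 h did not overlap. A further Insig1 probe set, 92396_at on A, lay between 6 and 217 and under the floor on all 9 arrays.

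Hmgcs1, the cytosolic HMG-CoA synthase that makes the substrate of HMG-CoA reductase, was read by 94325_at on A. Its intensity was 1619 in Norm, 2024 and 1701 at 10 h, 3189 and 2905 at 2 d, 2978 and 1771 at 4 d, and 2368 and 1691 at 6 d. The Norm array was the lowest of the 9. Both 2 d arrays were near the top, and 4 d sample 1a lay between them. At 2 d the log2 difference from Norm was 0.91 ± 0.32 SE, 1.88-fold, with a 95% interval of 0.18 to 1.64 and a limma adjusted p of 0.174. It was 0.20 at 10 h, 0.50 at 4 d and 0.31 at 6 d, each with a 95% interval that includes 0. From 2 d to 6 d the log2 difference was -0.61 ± 0.26 SE, with an interval of -1.20 to -0.01 and a limma adjusted p of 0.376. In order of means Norm was lowest, then 10 h, 6 d, 4 d and 2 d, and the arrays of each neighbouring pair overlapped except Norm and 10 h. The 2 d arrays are those whose Gapdh ratio was 4.28 and 3.97 on A, and the part of RNA quality in this value was not tested.

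Sqle, squalene epoxidase, the first oxygen-requiring step of sterol synthesis, was read by 94322_at on A. Its intensity was 1032 in Norm, 1248 and 1131 at 10 h, 1292 and 1268 at 2 d, 1219 and 1154 at 4 d, and 1007 and 943 at 6 d. It had the narrowest range of the member probe sets, the highest array being 1.37 times the lowest. All 6 arrays at 10 h, 2 d and 4 d lay above Norm, and both 6 d arrays below it. In order of means 6 d was lowest, then Norm, 4 d, 10 h and 2 d, and among neighbours only 4 d and 10 h overlapped. The log2 difference from Norm was 0.31 ± 0.20 SE at 2 d, with a 95% interval of -0.14 to 0.76, and -0.08 at 6 d, with an interval of -0.54 to 0.37. From 2 d to 6 d it was -0.39 ± 0.16 SE, with an interval of -0.76 to -0.02 and a limma adjusted p of 0.352.

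Acly, ATP citrate lyase, which makes the cytosolic acetyl-CoA that both pathways start from, was read by 160207_at on A. Its intensity was 2931 in Norm, 2359 and 2380 at 10 h, 2924 and 2374 at 2 d, 2187 and 2964 at 4 d, and 2523 and 3161 at 6 d. The 10 h pair agreed closely and lay below Norm, but the 2 d and 4 d pairs reached down to the same values. The log2 difference from Norm was -0.31 ± 0.24 SE at 10 h, with a 95% interval of -0.85 to 0.24, and lay nearer 0 at the later times. The order of means ran from 10 h through 4 d, 2 d and 6 d to Norm, and each neighbouring pair overlapped. A probe set of Acly on C, 170897_r_at, lay between 15 and 207, above the floor on 2 of 10 arrays, so no change could be measured with it.

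Fasn, fatty acid synthase, which builds palmitate, was read by 98575_at on A at 3452 in Norm, 2622 and 2959 at 10 h, 2865 and 3498 at 2 d, 2171 and 3424 at 4 d, and 3965 and 3122 at 6 d. Neighbouring groups in the order 4 d, 10 h, 2 d, Norm and 6 d all overlapped. Its log2 difference from Norm was -0.31 ± 0.29 SE at 10 h and -0.34 ± 0.29 SE at 4 d, with a 95% interval of -0.96 to 0.34 at 10 h. A pair of dim probe sets on B also carry the symbol. The first, 110644_s_at, whose suffix marks probes shared with similar transcripts, read 328 and 282 in Norm, 238 and 265 at 10 h, 175 and 277 at 2 d, 314 and 390 at 4 d, and 384 and 563 at 6 d. Only the 4 d and 6 d pairs lay wholly above the floor of 297.36, so 10 h and 2 d have an upper bound alone. Fitted against the floor, the log2 difference of 6 d minus 2 d was 0.65 ± 0.19 SE, with a 95% interval of 0.22 to 1.07 and a limma adjusted p of 0.190. That of 6 d minus Norm was 0.57, with a limma adjusted p of 0.387. The bright probe set differed by 0.15 from 2 d to 6 d, with an interval of -0.38 to 0.69, and by 0.03 from Norm to 6 d. The last, 110645_at, lay between 167 and 386, above the floor on 4 of 10 arrays.

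Scd1, stearoyl-CoA desaturase, which turns saturated into monounsaturated fatty acids, was the member with the widest range among bright probe sets. Probe set 94056_at on A read 14090 in Norm, 8613 and 16479 at 10 h, 22953 and 33054 at 2 d, 15491 and 16235 at 4 d, and 24518 and 15784 at 6 d. Both 2 d arrays lay above the other groups except 6 d sample 1a. In order of means 10 h was lowest, then Norm, 4 d, 6 d and 2 d, and among neighbours only Norm and 4 d did not overlap. Its log2 difference from Norm at 2 d was 0.97 ± 0.46 SE, 1.95-fold, with a 95% interval of -0.08 to 2.02 and a limma adjusted p of 0.305. Fitted to the 2 d and Norm arrays alone, the same difference passed, but that fit holds 1 Norm array on A. Its spread comes from the 2 d pair alone, so the pass has little weight beside the fit to all groups.

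The companion probe set 94057_g_at, designed on the same transcript record, read 16975 in Norm, 8436 and 8086 at 10 h, 14685 and 16703 at 2 d, 10853 and 13443 at 4 d, and 27572 and 19902 at 6 d. Here no pair of groups overlapped, and 10 h was lowest, followed by 4 d, 2 d, Norm and 6 d. The log2 difference from Norm was -1.04 ± 0.30 SE at 10 h, a level 2.06-fold lower, with a 95% interval of -1.72 to -0.36 and a limma adjusted p of 0.561. At 2 d it was -0.12, with an interval of -0.80 to 0.56, where the first probe set stood at 0.97. At 6 d both probe sets were higher than Norm by a similar size, 0.48 and 0.46. Late times minus early times gave 0.56 ± 0.17 SE for 94057_g_at, with a limma adjusted p of 0.311, and -0.04 for 94056_at. The F test of 94057_g_at passed, with an adjusted p of 0.0463, when the filter asked for 5 arrays above the floor. The pair thus differed in their pattern over the times, and their Pearson correlation over the 9 A arrays was 0.57. A further probe set, 94058_r_at, lay between 27 and 173, under the floor on all 9 arrays.

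**Figure D3:**
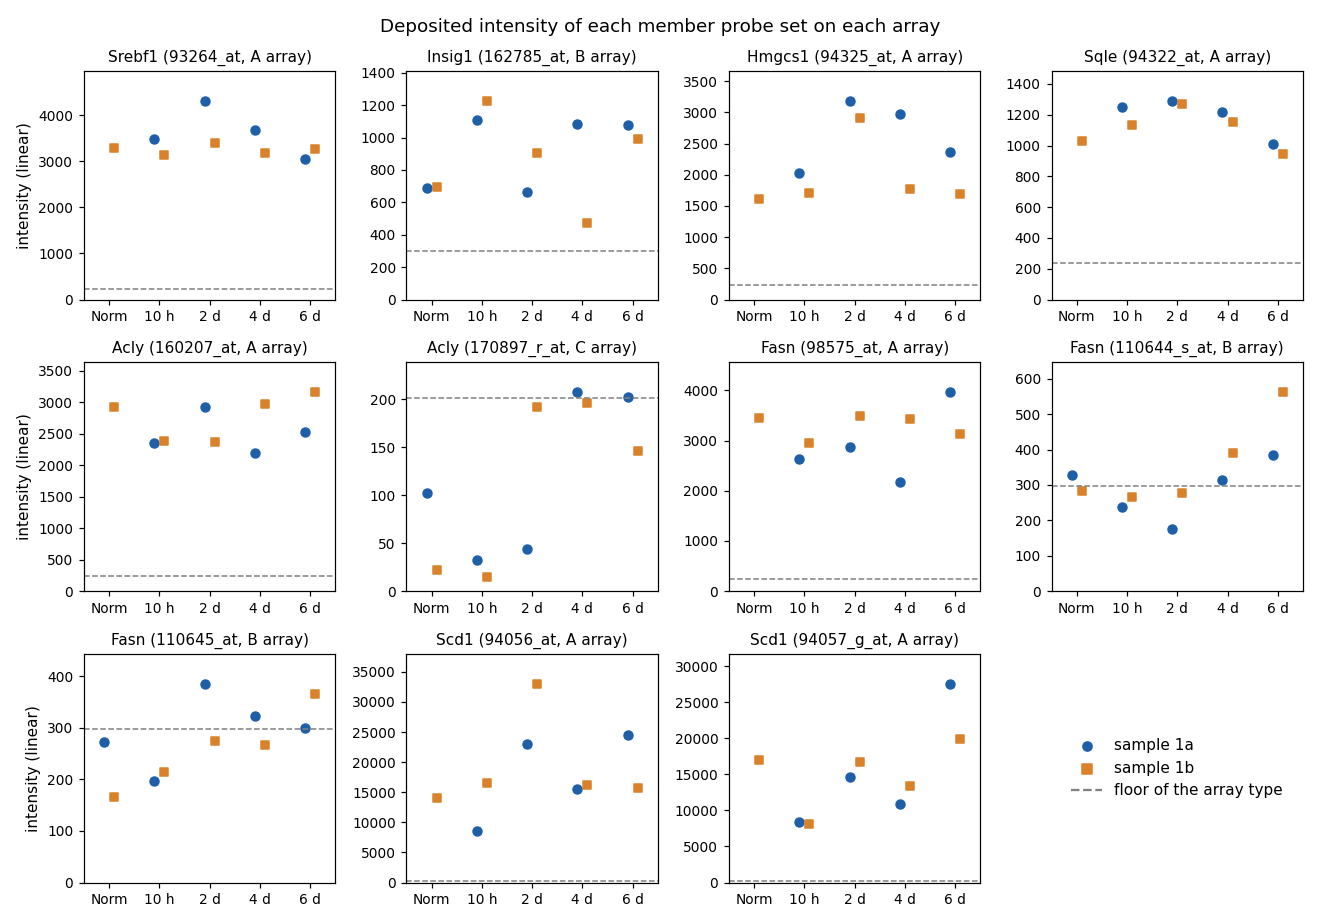
Deposited intensity (linear axis from 0) of the 11 tested member probe sets on each array, by group, with circles for sample 1a, squares for 1b and a dashed line for the floor of the array type. Hmgcs1 and Scd1 94056_at stand highest at 2 d, Scd1 94057_g_at lowest at 10 h and highest at 6 d, and 3 probe sets of Fasn and Acly lie around the floor.

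The other genes of sterol synthesis came from a list of 19, of which 16 were tested and the rest not analysed here. None passed in a comparison of groups by limma, and 4 had an unadjusted p under 0.05 at 2 d, all higher, against 18.9% of all probe sets. At 2 d, 14 of the 16 were higher than in Norm and 2 lower, with a median of 0.31 beside 0.0038 over all genes. At 6 d minus 2 d, 2 were higher and 14 lower, with a median of -0.21 beside 0. Of all genes, 50.3% were higher in the first of these comparisons and 49.2% in the second. These comparisons share the 2 d arrays. At 10 h 11 were higher and 4 lower, at 4 d 9 and 6, and at 6 d 8 and 7, with medians of 0.08, 0.04 and 0.03. Over the alternatives of processing the median at 2 d ran from 0.23 to 0.46. Mvd was counted through a probe set above the floor on the 2 d arrays alone. With the filter at 5 arrays above the floor, which leaves it out, 13 were higher and 2 lower at 2 d, and 2 and 13 at 6 d minus 2 d. Without 2 d sample 1b, 11 of the 15 genes still tested were higher and 4 lower, and without 2 d sample 1a 13 and 2. The mean log2 level of the 11 genes on A was 9.26 in Norm and 9.61 to 9.72 on the 2 d arrays, against 9.27 to 9.48 on the arrays of the other times.

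Idi1, isopentenyl diphosphate isomerase, chosen after its values were seen, read 976 in Norm, 1982 and 2198 at 2 d and 933 to 1645 at the other times. Its log2 difference at 2 d was 1.10 ± 0.23 SE, and the limma adjusted p was 0.0562. Lss, lanosterol synthase, likewise chosen after its values were seen, read 345 and 385 in Norm, 892 and 565 at 2 d, and 142 to 594 at the other times, with a difference of 0.96 ± 0.32 SE at 2 d. Fdft1, squalene synthase, chosen the same way, read 1374 in Norm, 1815 and 2398 at 2 d and 921 to 1389 elsewhere, a difference of 0.60 ± 0.24 SE. In these 3 genes, as in Hmgcs1, the 2 d arrays were the highest or among the highest, and none passed at 2 d. Idi1 passed there under 3 alternatives, with a limma adjusted p of 0.0449 when the filter asked for 5 arrays above the floor. The others were the fit without 4 d sample 1b and the 2 groups fitted alone, where the spread comes from the 2 d pair.

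Mvd, mevalonate diphosphate decarboxylase, passed the F test through 1 probe set. That probe set, 169042_r_at on C, read 24227 and 17089 in Norm, 8010 and 8221 at 10 h, 23553 and 23386 at 2 d, 21183 and 16260 at 4 d, and 26264 and 19203 at 6 d. Both 10 h arrays lay below all others, and the F test by limma gave an adjusted p of 0.0495. The call ended in 8 of 10 fits that left out 1 sample, namely each sample of 10 h, 2 d, 4 d and 6 d, with adjusted p up to 0.191. The Mvd probe set on A, 160770_at, lay at 76 to 290, above the floor on the 2 d arrays alone. It met the filter only through those arrays, so its higher level at 2 d in the counts above was fixed in advance. All other A arrays were raised to the floor, and the log2 difference of 0.27 at 2 d was fitted against it. When dim probe sets were not filtered, its limma adjusted p at 2 d was 0.0147. That p rests on values with almost no spread, most of them set by the floor. The lower Mvd level at 10 h thus rests on the C probe set alone, which read far brighter than the A probe set.

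The list of sterol uptake, export and control held 15 genes, of which 12 were tested. At 2 d, 0 were higher and 12 lower than in Norm, with a median of -0.33, and 1 of them passed. Of all genes, 50.3% were higher at 2 d and 1.56% passed, with a median of 0.0038. At 6 d minus 2 d, 12 were higher and 0 lower, with a median of 0.45, again with the 2 d arrays shared. Of all genes, 49.2% were higher at 6 d than at 2 d, with a median of 0. Over the alternatives of processing that kept all 12 genes, 10 to 12 were lower at 2 d. At 10 h 3 were higher and 9 lower, and at 4 d and 6 d 5 and 6 were higher. Lpin1, lipin 1, a phosphatidate phosphatase and regulator of SREBP, read 1119 and 916 in Norm, 1346 and 1614 at 10 h, 287 and 167 at 2 d, 1394 and 809 at 4 d, and 861 and 936 at 6 d. Both 2 d arrays were under the floor, so the difference was fitted against the floor at 2 d. Lpin1 fell by 1.77 ± 0.28 SE on the log2 scale, with a limma adjusted p of 0.0231. That call ended without Norm sample 1a, either 2 d sample or either 6 d sample, with adjusted p up to 0.102.

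Mylip, the ligase that marks the LDL receptor for degradation, passed the F test with a limma adjusted p of 0.0418. It read 1970 and 1772 in Norm, 2399 and 2321 at 10 h, 1383 and 1454 at 2 d, 2784 and 3805 at 4 d, and 2608 and 2777 at 6 d. The 2 d arrays were the lowest and the 4 d and 6 d arrays the highest. The call ended in 7 of 10 fits without 1 sample, those of either 10 h, 2 d or 6 d sample and of 4 d sample 1b. Insig2, the second INSIG protein, chosen after its values were seen, read 2954 and 2484 in Norm and 1119 and 1670 at 2 d, a log2 difference of -0.99 ± 0.24 SE with a limma adjusted p of 0.0732, or 0.0475 with adjustment within each array type. Insig1 at 2 d stood at 0.17 with an interval of -0.63 to 0.96.

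For fatty acid and lipid synthesis, 16 of 21 listed genes were tested and 0 passed in any comparison or in the F test by limma. At 2 d, 2 had an unadjusted p under 0.05, both lower, against 18.9% of all probe sets. At 2 d 6 were higher and 10 lower, with a median of -0.05, at 10 h 5 and 11, at 4 d 9 and 7, and at 6 d 5 and 11, while 47.2% to 50.3% of all genes were higher at these times. Leaving out 1 sample turned these counts: without Norm sample 1a they were 9 and 7 at 10 h and 8 and 8 at 6 d and 2 d, without 6 d sample 1a 10 and 6 at 6 d, and without 4 d sample 1b 7 and 9 at 4 d. Scaling each array to its type median also gave 7 and 9 at 4 d. From 10 h to 4 d 13 were higher and 3 lower, with a median of 0.19 beside 0 over all genes, and 10 to 14 were higher over the alternatives. Gpam, the mitochondrial glycerol-3-phosphate acyltransferase, had the smallest F test p of the list, with a limma adjusted p of 0.195 in that test. It read 2753 in Norm and 1975 and 1782 at 2 d. Elovl5, an elongase of unsaturated fatty acids, came next, with a limma adjusted p of 0.198 in the F test, and read 8093 in Norm and 5319 and 5377 at 2 d. Scd2, the desaturase of the same family as Scd1, chosen for that reason, read 14330 in Norm and 9158 to 14472 over the low oxygen arrays.

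**Figure D4:**
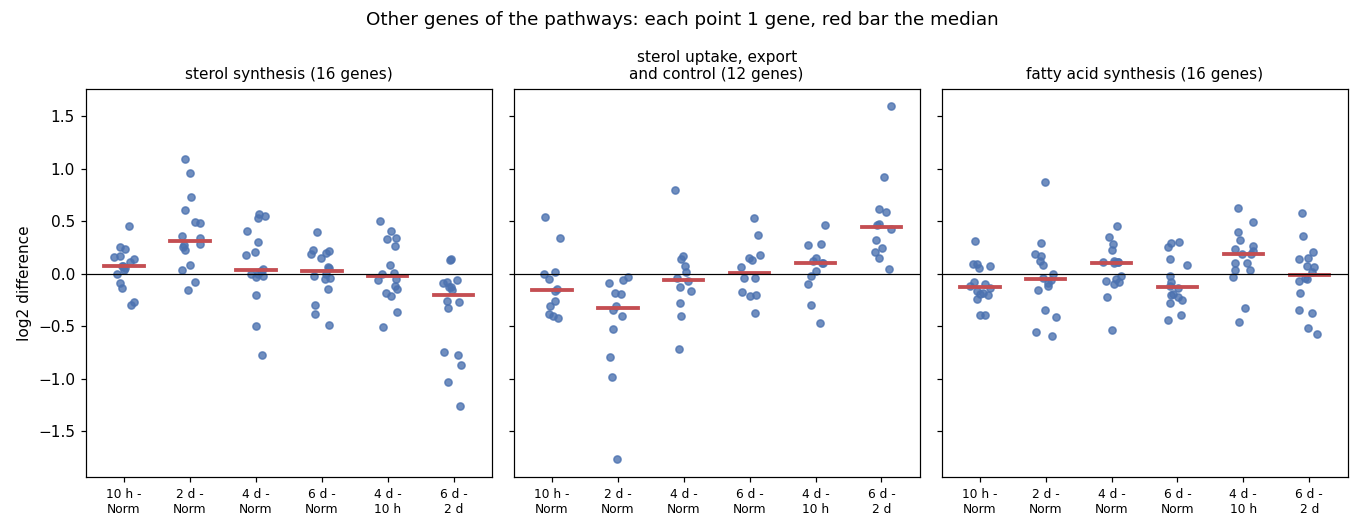
Log2 difference of each further gene of the 3 pathway lists (points) and the median (red bars) in 6 comparisons, with 16, 12 and 16 genes. At 2 d minus Norm the medians were 0.31 for sterol synthesis, -0.33 for uptake, export and control, and -0.05 for fatty acid synthesis.

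Several of these genes are also abundant in fat, and Scd1 and Fasn in type 2 cells, so markers of the cells that a lung sample can hold were read beside them. Of 15 fat markers 10 were tested, and their mean log2 level was 9.59 in Norm, 9.52 to 9.62 at 10 h, 9.25 to 9.34 at 2 d, 9.48 to 9.60 at 4 d and 9.48 to 9.51 at 6 d. Adipoq, the fat cell hormone adiponectin, lay at 634 to 1210, while Ucp1 of brown fat did not pass the filter on dim signals. Car3, carbonic anhydrase 3, abundant in fat and muscle, fell by 2.45 ± 0.27 SE on the log2 scale at 2 d, from 1624 to 262 and 339, with a limma adjusted p of 0.0167, which became 0.0614 without 2 d sample 1b. At 2 d 4 of the 10 were higher than in Norm and 6 lower, with a median of -0.22 and single values up to 1.29, while 50.3% of all genes were higher. Without Car3 the mean of the other 9 was 9.47 in Norm and 9.35 to 9.49 at 2 d, within or near the 9.42 to 9.54 of the 10 h, 4 d and 6 d arrays. Their part in the values of the lipid genes was not tested.

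Of all genes, 50.3% were higher than in Norm at 2 d and 49.7% at 6 d. Of 13 type 2 cell markers, all tested, 5 were higher and 8 lower at 2 d, with a median of -0.14, and 11 and 2 at 6 d, with a median of 0.30. Their mean log2 level on A was 12.52 in Norm, 11.90 to 12.41 at 10 h, 12.74 to 12.83 at 2 d, 12.47 to 12.55 at 4 d and 12.66 to 12.83 at 6 d. The 10 h arrays were lowest for these 6 markers on A, as in Scd1 94057_g_at. On B, with 3 markers, the level was 12.53 to 12.79 at 10 h, 12.50 to 12.58 at 2 d and 12.79 to 13.53 in the other groups, and on C, with 4, the 10 h arrays at 13.52 to 13.57 and the 2 d arrays at 13.45 to 13.57 overlapped. The part of this in the Scd1 values was not tested. Etv5, a transcription factor of type 2 cells, fell by 1.10 ± 0.20 SE at 2 d and was higher by 1.85 ± 0.20 SE at 6 d than at 2 d, with limma adjusted p of 0.0321 and 0.0254. It was the extreme of the list in both, and the opposite extremes were 2.46 at 2 d and -1.42 for 6 d minus 2 d. Sftpa1, surfactant protein A, was higher by 1.46 ± 0.16 SE at 6 d than at 2 d on probe set 163019_i_at, with a limma adjusted p of 0.0254. A different Sftpa1 probe set, 170116_at, which stands for the gene in the counts above, did not pass in that comparison. Leaving out 1 sample ended the Etv5 call at 2 d in 7 of 10 fits, and ended the Etv5 and Sftpa1 calls at 6 d minus 2 d in 8 of 10 each.

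Of 11 macrophage markers 7 were tested and none passed in any comparison or in the F test by limma. An unadjusted p under 0.05 was held by 0 at 2 d and 1 at 6 d, against 18.9% and 9.17% of all probe sets. Chil3 and Cd68 had the smallest F test p, with limma adjusted p of 0.204 and 0.277, and the mean log2 level of the list was 10.54 in Norm and 10.45 to 10.78 in low oxygen. Of 10 markers of other lung cells none passed in any comparison or in the F test, with 3 at an unadjusted p under 0.05 at 2 d, against 18.9% of all probe sets. Scgb1a1 and Pdpn, a marker of type 1 cells, came first there, with adjusted p of 0.120 and 0.165. Muscle markers moved most, with 11 of 13 lower than Norm at 10 h, 2 d and 6 d. Of all genes, 47.2%, 50.3% and 49.7% were higher than Norm at those times. The mean log2 level of the muscle list on A was 10.18 in Norm, 9.01 to 9.34 at those times and 9.69 to 10.07 at 4 d. Acta1, skeletal actin, fell by 2.72 at 2 d, and Myh1, Myl4, Myl7 and Tnni3 also fell there, with limma adjusted p of 0.0298, 0.0321, 0.0328, 0.0263 and 0.0458. Of all genes, 1.56% passed at 2 d. Leaving out 1 sample ended the Tnni3 call in 8 of 9 fits and each of the other 4 muscle calls in 6 of 9. The single Norm array on A stands behind each of these differences from Norm. From 10 h to 4 d, where no Norm array is used, 12 of 13 muscle markers were higher, against 49.1% of all genes. Acta1 was higher there by 3.45, with a limma adjusted p of 0.0386, and by 2.85 to 4.68 over the alternatives of processing. This call was lost in 13 of the 21 alternatives. The part of the muscle markers in the lipid genes was not tested.

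Among themselves the members did not follow 1 pattern. Over the 21 pairs of member probe sets on the 9 A arrays, which share sample, array and scaling, the Pearson correlation of log2 levels ran from -0.57 to 0.70 with a median of 0.08. Hmgcs1 and Sqle, both sterol enzymes, correlated at 0.65, and at 0.40 without the 2 d arrays. Acly and Fasn, both fatty acid enzymes, correlated at 0.43, and at 0.62 without the 2 d arrays. Srebf1 correlated at 0.68 with Hmgcs1, 0.65 with Sqle and -0.56 with Fasn. Hmgcs1 correlated at -0.42 with Acly and -0.30 with Fasn, and Sqle at -0.49 and -0.48, while Hmgcs1 with Scd1 94056_at stood at 0.54. Without the 2 d arrays this last value was 0.17, Srebf1 with Fasn stood at -0.90, Srebf1 with Hmgcs1 at 0.51 and with Sqle at 0.59. On the same 7 arrays Hmgcs1 correlated at -0.72 with Acly and -0.49 with Fasn, and Sqle at -0.70 and -0.68.

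The genes nearest in pattern to each member were taken as the 3 highest Pearson correlations among 7518 to 7641 probe sets of the same array type, so they were selected to be high. For Scd1 94056_at they were Hba-a1, a globin chain, at 0.98, Nomo1 at 0.97 and Snap23 at 0.97, over 9 arrays. Hba-a1 itself ran from 6332 to 42018. For Hmgcs1 they were Nsun2 at 0.96, Gosr2 and Nadk at 0.93, and for Sqle Aars, Chrnb1 and S100a4 at 0.91 to 0.92. For Srebf1 they were S100a9 at 0.94, Fkbp4 at 0.92 and Mtarc2 at 0.92, for Fasn Tmem11 at 0.95, Gnpat at 0.91 and Fbxw4 at 0.90, and for Acly Gng3 at 0.93, Cdadc1 and Slc35c2 at 0.88. For Insig1 on 10 B arrays they were Lyplal1 at 0.94, Smap2 and Ubtf at 0.91. None of these genes stood in the lists of lipid genes used here.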

How the data were processed

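The 8 genes and the gene lists were chosen with earlier results of these data known, as were the tests. The authors deposited linear intensities, 1 value for each probe set and array. How probes were summarised is not given in the sources used here. With 2% trimmed from both ends, means over the 29 arrays used were 800.2 to 800.4, and no further scaling was applied to the deposited intensities. Probe sets above the floor (the 40th percentile of an array type) on at least 2 arrays were tested, 8392 on A, 8600 on B and 8809 on C. limma 3.58.1 in R 4.3.3 fitted 5 group means per array type (lmFit, eBayes with a trend), two-sided, with Benjamini-Hochberg adjustment over the 3 types. All groups shared 1 estimate of the spread. Intervals are 95% and unadjusted. On simulated data for 2 d minus Norm over 25799 probe sets, 97 of 100 log2 changes of 2 and 99 of 100 of 3 were called. These changes were placed only in probe sets with a mean more than 2 log2 units above the highest floor. Smaller changes, such as those seen in the members, and probe sets near the floor were not simulated, so the share of them that would be called is not known. The number of arrays limits the precision.

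Symbols came from the supplied platform annotation, which may be dated. A single symbol was given for 10833 probe sets of A, several for 396 and none for 1193; on B 10581, 178 and 1652; on C 7717, 150 and 4001. For counts over lists, a gene was represented by 1 tested probe set. Named by rule were all member probe sets and the 3 genes most like each member. From each other list the rule named the genes that passed, up to 6, or else the 2 of smallest F test p. Adipoq, Ucp1, Sftpb and Scd2 were named outside this rule, and others are said to be chosen after their values were seen. The letters 1a and 1b were not treated as pairs. Over 26 pairs of groups the correlation of same-lettered deviations ran from -0.158 to 0.134 and exceeded 0.1 in 1. The labels do not say what the letters share, and this check could miss a small shared effect.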

Additional observations from a re-analysis of the deposited data

How the results depend on the processing

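By limma, the count of members past the threshold stayed at 0 under all alternatives except 2: it was 1 for 2 d minus Norm with the 2 groups fitted alone (Scd1 94056_at) and 1 for any difference among the 5 groups with the filter raised to 5 arrays above the floor (Scd1 94057_g_at). The smallest adjusted p of a member over the alternatives was 0.0420 for 2 d minus Norm, 0.0463 for the F test, and 0.0948 or more for the other comparisons. The correlation of Hmgcs1 with Sqle moved to 0.40 and that of Acly with Fasn to 0.62 without the 2 d arrays. Refitting without the 2 d arrays, or within 1 run of deposit, was chosen after seeing the data, and with either no member passed. Reading Scd1 by its other bright probe set and the fat markers without Car3 were also chosen after seeing the data. No member difference that changed sign had passed the test, and the cause was not tested. With each array scaled to its type median, Srebf1 was -0.012 for 10 h minus Norm, Srebf1 was -0.086 for 4 d minus Norm, Fasn 98575_at was -0.068 for 6 d minus Norm, Srebf1 was -0.018 for mean of low oxygen minus Norm, Acly was -0.015 for 4 d minus 10 h, Srebf1 was -0.074 for 4 d minus 10 h and Fasn 98575_at was -0.032 for late minus early. With quantile normalization, Scd1 94056_at was 0.032 for 10 h minus Norm, Fasn 98575_at was 0.029 for 4 d minus 10 h, Sqle was 0.023 for 4 d minus 10 h, Fasn 110645_at was 0.012 for 6 d minus 2 d and Scd1 94056_at was 0.12 for late minus early. With the floor at the 25th percentile, Fasn 110645_at was 0.023 for 6 d minus 2 d. With the letters as a replicate block, which the check of pairing did not bear out and under which 0 members passed, Srebf1 was -0.069 for 10 h minus Norm, Hmgcs1 was -0.0063 for 10 h minus Norm, Srebf1 was -0.025 for 4 d minus Norm, Acly was 0.0060 for 6 d minus Norm and Srebf1 was -0.024 for mean of low oxygen minus Norm. Over fits that each left out 1 sample, log2 differences that changed sign ranged as follows for 10 h minus Norm, Scd1 94056_at -0.71 to 0.23 and Srebf1 -0.069 to 0.083. For 2 d minus Norm they were Fasn 98575_at -0.27 to 0.019 and Insig1 -0.059 to 0.39. For 4 d minus Norm they were Acly -0.42 to 0.016, Srebf1 -0.055 to 0.16 and Insig1 -0.55 to 0.65. For 6 d minus Norm they were Fasn 98575_at -0.15 to 0.20 and Acly -0.22 to 0.11. For 4 d minus 10 h they were Scd1 94056_at -0.055 to 0.88, Sqle -0.073 to 0.069, Fasn 98575_at -0.36 to 0.30, Srebf1 -0.062 to 0.15, Hmgcs1 -0.067 to 0.68 and Acly -0.12 to 0.32. For 6 d minus 2 d they were Fasn 110645_at -0.22 to 0.15, Acly -0.062 to 0.26 and Fasn 98575_at -0.020 to 0.32. For late minus early they were Scd1 94056_at -0.27 to 0.20, Fasn 98575_at -0.10 to 0.22, Fasn 110645_at -0.083 to 0.11, Acly -0.0078 to 0.21, Hmgcs1 -0.34 to 0.039 and Insig1 -0.45 to 0.16. At 2 samples a group, and 1 Norm array on A, the number of arrays limits the precision, and probe sets near the floor give bounds alone.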
